A study of Mus musculus with 3 samples.

Results

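The genes described here are 49 members of the complement and coagulation systems, picked by symbol among the 55357 genes of the count matrices. Every symbol matched 1 row, and the set was chosen with earlier results of these data known. They fall into 11 roles: 5 genes of the C1 complex, 4 of the lectin pathway, 6 of the C3 convertases and alternative pathway, 5 of the terminal pathway, 3 complement inhibitors, 2 anaphylatoxin receptors, 5 for fibrinogen and its crosslinking, 6 vitamin K-dependent factors, 3 cofactors and carriers of clotting, 5 of the contact system, and 5 inhibitors of clotting and plasmin together with plasminogen.

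Complement is a cascade of plasma proteins in which antibody-bound C1, sugar-binding lectins or the alternative pathway converge on C3, and the terminal components then build a pore in the target membrane. Coagulation is a cascade of serine proteases that ends in thrombin, which cuts fibrinogen into fibrin, while antithrombin, protein C and plasmin hold clotting and clots in check. The hepatocyte is the textbook source of most of these plasma proteins, macrophages are known for C1q, and endothelial cells for von Willebrand factor and factor VIII.

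Livers of wild-type male C57BL/6 mice, 8 weeks of age at the start, were compared after 3 treatments. The control (CON) mice were left untreated (their age at sampling is not in the labels), the HFD mice received a diet with 60% of its calories from fat for 4 months, and the CCL4 mice received chow for 3 months and then intraperitoneal 10% CCl4, 0.1 mL given 2 times a week for 4 weeks. Hepatocytes and nonparenchymal cells from perfused livers were mixed 1:1 and measured by droplet single-cell RNA-seq, which counts unique molecular identifiers (UMIs) at the 3′ ends of transcripts. Each treatment had 1 library that pooled 2 mice, so no test between treatments was possible, and all intervals below are 95% intervals for counting error only.

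The 3 libraries held 11245, 12984 and 12761 barcodes (CON, HFD and CCL4, the order of all values below) and 49613255, 34985786 and 34061186 UMIs. After filtering, 36945 cells remained, of which 18442 were hepatocyte-like by their markers, with 4960, 6437 and 7045 in the 3 libraries. Between 36 and 52 barcodes were shared by any pair of libraries. Levels are given as CPM, the UMIs of a gene per 1000000 UMIs of the summed cells of a class, not divided by transcript length.

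Free hepatocyte RNA was present in every class. The 14 hepatocyte markers, none of them at 0, summed to 94072, 152706 and 169408 CPM in hepatocyte-like cells and to 29544, 100925 and 131433 CPM in T cell-like cells, which do not make these transcripts. The contrast between hepatocytes and background was therefore narrower in the HFD and CCL4 libraries than in CON. T cell-like CPM (from 1748, 2141 and 1996 cells) was taken as the free RNA level and is printed beside hepatocyte-like CPM for a part of the genes. Where it is not printed, the hepatocyte-like CPM still includes free RNA. A gene was called above free RNA in hepatocyte-like cells when it had at least 10 UMIs and at least 2 times the T cell-like CPM, with a lower bound over 1. In other classes the T cell-like level was first scaled to the free RNA of that class with 11 abundant hepatocyte genes outside the 49.

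A pair of further features of the libraries touch every hepatocyte value. Most hepatocyte-like cells lay in clusters with a very low mitochondrial share (a median of 0.334% in CON, 0.457% in HFD and 0.623% in CCL4), and 1525, 1182 and 3038 cells lay in clusters with a median of 2% or more, called mitochondria-rich here, whose values are given as a second reading. The CON library stood apart by acute phase transcripts: a list of 20 acute phase genes, none of them among the 49, summed to 81567 CPM in its hepatocyte-like cells against 15049 in HFD and 17098 in CCL4. Complement and coagulation genes include known acute phase genes, and the part of this difference in the comparisons with CON was not tested.

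The 49 genes together made up 4.06% of hepatocyte-like UMIs in CON (exact binomial interval 4.05 to 4.07), 2.33% in HFD (2.32 to 2.34) and 2.69% in CCL4 (2.69 to 2.70). In T cell-like cells the same genes made up 1.12% (1.11 to 1.13), 1.64% (1.63 to 1.65) and 1.71% (1.69 to 1.72). In mitochondria-rich clusters their share was higher, at 6.26% (6.25 to 6.27), 3.22% (3.21 to 3.24) and 3.09% (3.08 to 3.10). The 3 fibrinogen chains alone gave 2.79% of hepatocyte-like UMIs in CON (2.79 to 2.80), 1.26% in HFD (1.26 to 1.27) and 1.35% in CCL4 (1.34 to 1.35).

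In CON, 37 of the 49 genes were above free RNA in hepatocyte-like cells, where 16.1% of all genes tested were. Their median ratio to T cell-like cells was 3.29 over the 47 genes tested, against 0.742 over all 12742 genes tested. In HFD none of the 44 tested members reached this call (1.86% of all genes did, with a median ratio of 1.42 for the members), and in CCL4 11 of 44 did (5.82% of all genes, with a median ratio of 1.66). The 11 were C1s1, C3, C6, F13b, F7, F9, Pros1, F5, Klkb1, Serpind1 and Plg. In mitochondria-rich clusters 39, 20 and 22 members were above free RNA, against 17.9%, 12.1% and 12.7% of all genes tested. The number of members called in the HFD and CCL4 libraries thus depended on which hepatocyte-like clusters were read.

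Outside hepatocyte-like cells, 20 members in each library were above free RNA in some class of at least 50 cells, while 85.2%, 65% and 55.1% of all genes tested were. With classes of at least 50 cells in CON, 28 members were above free RNA in hepatocyte-like cells alone. A further 9 were above it in hepatocyte-like cells and another class (C1ra, C1s1, Masp1, C2, C4b, C6, Serping1, F10 and Proc), and 11 in other classes alone (C1qa, C1qb, C1qc, Cfp, C3ar1, C5ar1, F13a1, Pros1, F8, Vwf and Tfpi). The 28 include C3, which was also above free RNA in fibroblast-like cells of CON, a class of 23 cells. Of the 11, Pros1 fell just short of the call in hepatocyte-like cells of CON. In mitochondria-rich clusters of CON, Pros1 and C5ar1 were called in hepatocyte-like cells too. The remaining gene, Cfd, the protease of the alternative pathway known from fat tissue, had at most 0.93 CPM in hepatocyte-like cells of any library.

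**Figure D1:**
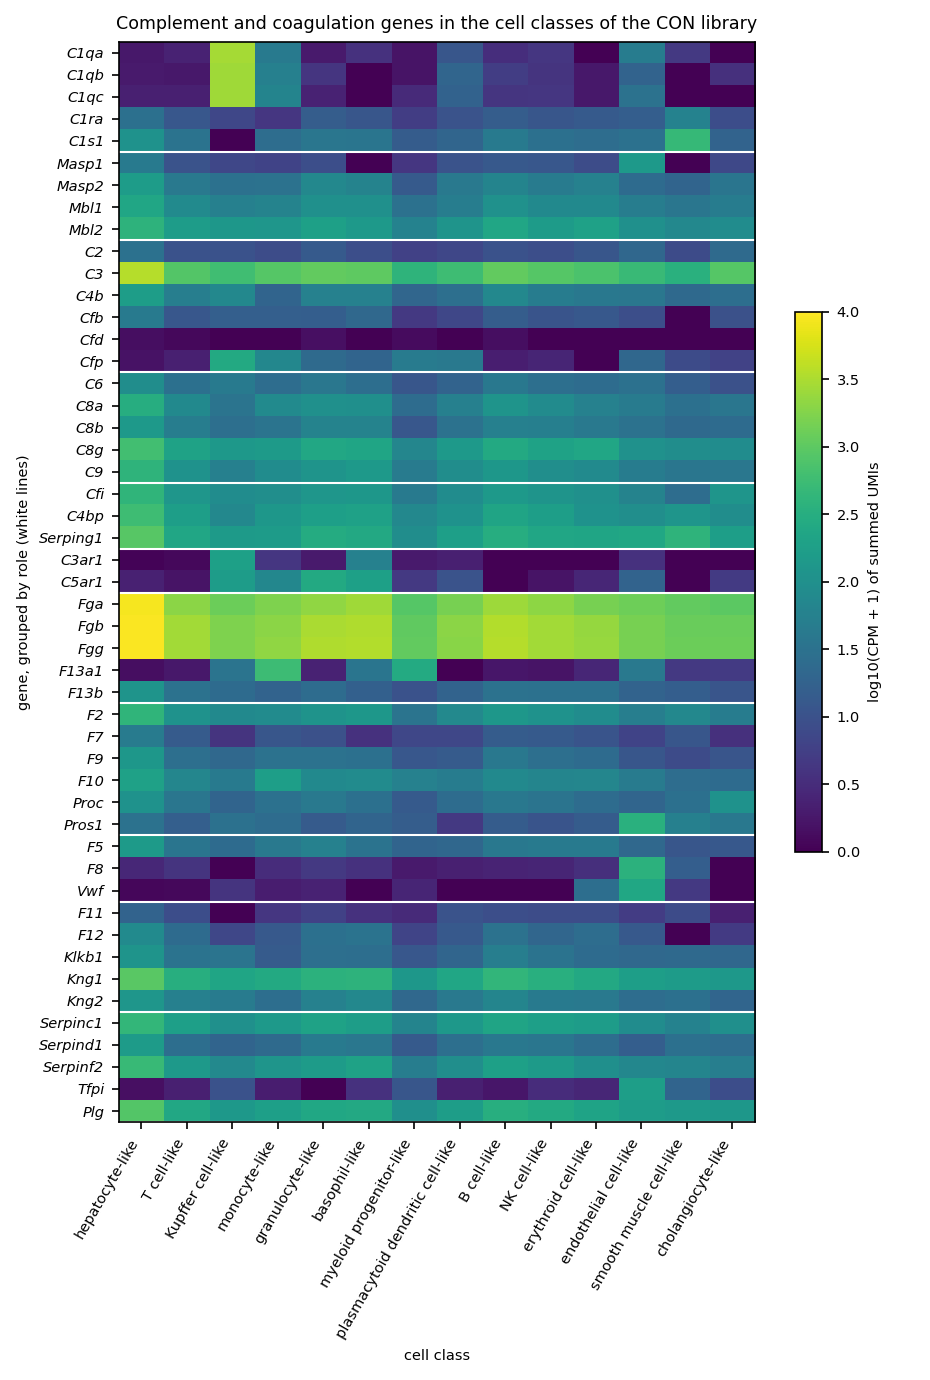
Level of each of the 49 genes (rows, grouped by role) in the CON library, as log10(CPM + 1) of summed UMIs. Columns are the cell classes that held 50 cells or more. Smaller classes are not drawn, among them the fibroblast-like class of 23 cells. C3, Serping1, C1s1, C4b, C1ra, C2, Masp1 and Pros1 had a higher CPM in that class than in hepatocyte-like cells. Most rows are brightest in the hepatocyte-like column, with a paler even level in the other classes, whereas the C1q chains peak in Kupffer cell-like cells (2907 CPM for C1qa), F13a1 in monocyte-like cells (558 CPM), and F8, Vwf, Pros1 and Tfpi in endothelial cell-like cells.

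Fibrinogen is made of 3 chains whose genes lie next to each other, Fgg, Fga and Fgb, within 42.14 kb of chromosome 3. Because the chains moved together when all hepatocyte-like cells were summed, the 250 bases before each start are shown. They come from RefSeq on GRCm38.p6, in the direction of transcription, with matches to any of 4 searched motifs in capitals. The windows are chr3:83025903-83026152 on the plus strand for Fga, chr3:83049864-83050113 on the minus strand for Fgb and chr3:83007474-83007723 on the plus strand for Fgg.
Fga: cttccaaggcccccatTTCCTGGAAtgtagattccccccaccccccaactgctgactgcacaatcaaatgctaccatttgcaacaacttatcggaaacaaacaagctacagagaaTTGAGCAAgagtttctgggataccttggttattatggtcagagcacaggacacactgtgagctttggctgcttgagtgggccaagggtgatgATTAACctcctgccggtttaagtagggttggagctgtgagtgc
Fgb: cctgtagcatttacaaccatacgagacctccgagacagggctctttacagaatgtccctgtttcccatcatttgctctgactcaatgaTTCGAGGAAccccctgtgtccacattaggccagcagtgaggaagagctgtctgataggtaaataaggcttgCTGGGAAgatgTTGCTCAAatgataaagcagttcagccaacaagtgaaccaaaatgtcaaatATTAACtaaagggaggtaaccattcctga
Fgg: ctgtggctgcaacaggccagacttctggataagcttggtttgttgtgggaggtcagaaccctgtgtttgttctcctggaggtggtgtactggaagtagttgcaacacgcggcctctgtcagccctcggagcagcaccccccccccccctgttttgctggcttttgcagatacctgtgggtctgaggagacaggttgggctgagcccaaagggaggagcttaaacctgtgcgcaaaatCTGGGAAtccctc

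The motifs, searched on both strands, were TTCNNNGAA and CTGGGAA (letters of STAT3 sites), GTTAAT (a part of HNF1 sites) and TTGCNNAA (a core of C/EBP sites), and no searched matches overlapped in these windows. In Fga, TTCNNNGAA lay 234 to 226 bases before the start, TTGCNNAA 135 to 128 and GTTAAT 43 to 38. In Fgb, TTCNNNGAA lay 162 to 154 bases before the start, CTGGGAA 91 to 85, TTGCNNAA 80 to 73 and GTTAAT 29 to 24, and in Fgg only CTGGGAA was found, 13 to 7 bases before it. Of the 38 members with a promoter entry, TTCNNNGAA was present in 6, CTGGGAA in 6, GTTAAT in 8 and TTGCNNAA in 9, while 7.18%, 9.08%, 6.52% and 9.55% of all 27025 promoters of that length held them. These matches describe letters and do not show binding.

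Fga, the alpha chain, had 8864 CPM in hepatocyte-like cells of CON (8829 to 8899), 3784 in HFD (3755 to 3813) and 4367 in CCL4 (4339 to 4396), with 2042, 2718 and 2612 CPM in T cell-like cells. Fgb, the beta chain, had 9596, 4879 and 4803 CPM, with 2763, 3388 and 3284 CPM in T cell-like cells. Fgg, the gamma chain, had 9460, 3974 and 4297 CPM, with 2760, 2686 and 2743 CPM in T cell-like cells. Summed over all hepatocyte-like cells, the 3 chains were thus highest in CON, while in T cell-like cells Fga and Fgb were lowest in CON and Fgg was nearly level. In the main cluster of very low mitochondrial share of each library, Fga was instead lowest in CON, at 2487, 2824 and 3034 CPM. Fgb had 4834, 4291 and 4078 CPM there, and Fgg 5098, 3571 and 3841 CPM. The Fga values of this cluster were not far above its T cell-like levels of 2042, 2718 and 2612 CPM, which were also lowest in CON.

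Against CON, Fga was 0.427 times as high in HFD (0.423 to 0.431) and 0.493 times in CCL4 (0.489 to 0.497). The Fgg ratios were 0.420 (0.417 to 0.424) and 0.454 (0.451 to 0.458), and those of Fgb 0.508 (0.505 to 0.512) and 0.501 (0.497 to 0.504), just short of 2 times lower. In mitochondria-rich clusters Fga fell from 15406 to 6403 and 5359 CPM, and all 3 chains were past 2 times lower in both comparisons, at 0.364 to 0.448 in HFD and 0.333 to 0.369 in CCL4. The same ratios in T cell-like cells were 1.33 and 1.28 for Fga, 1.23 and 1.19 for Fgb, and 0.973 and 0.994 for Fgg. F13b, the carrier subunit of the fibrin-crosslinking factor XIII, did not share the pattern, with 115, 119 and 203 CPM in hepatocyte-like cells and 31.0, 76.6 and 86.3 CPM in T cell-like cells.

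**Figure D2:**
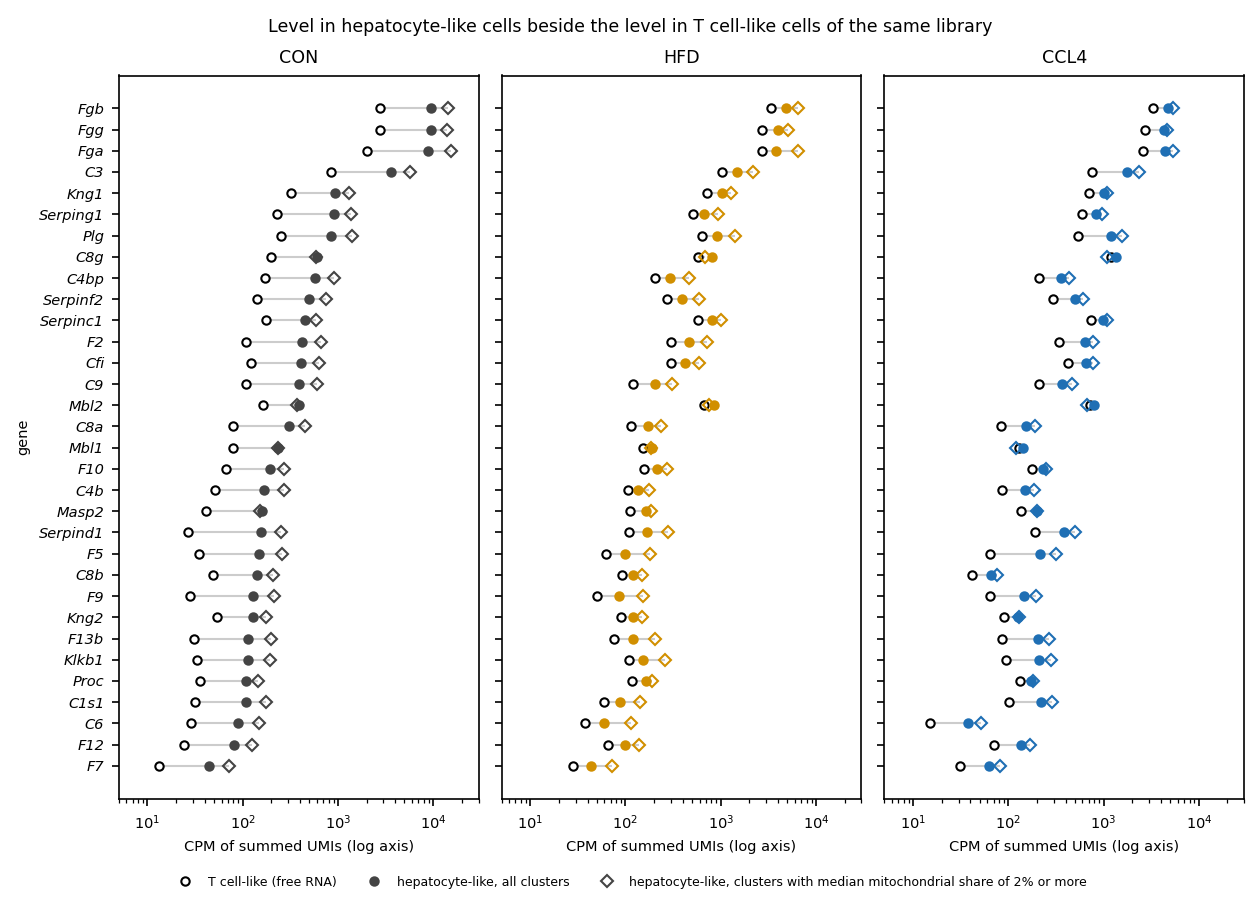
CPM (log axis) of the members with at least 50 CPM in hepatocyte-like cells of some library, in T cell-like cells (open circles), all hepatocyte-like cells (filled circles) and mitochondria-rich hepatocyte-like clusters (diamonds), 1 panel per library. The gap between open and filled circles is wide in CON, for example 2042 against 8864 CPM for Fga, and narrow in HFD, 2718 against 3784 CPM.

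In the C1 complex, the 3 chains of C1q, which recognise bound antibody, were at most 6.00 CPM in hepatocyte-like cells of any library and are described with the macrophages. C1ra, the protease that activates C1s, had 29.0, 37.1 and 35.1 CPM in hepatocyte-like cells, with 11.3, 32.0 and 27.5 CPM in T cell-like cells. C1s1, the protease that cuts C4 and C2, had 109, 87.2 and 222 CPM, with 31.8, 59.8 and 102 CPM in T cell-like cells. Only in CCL4 was C1s1 past 2 times CON in hepatocyte-like cells (2.03, 1.94 to 2.13), with a ratio of 1.65 in mitochondria-rich clusters and 3.22 in T cell-like cells. Reads of C1ra and C1s1 are uncertain where the near-identical copies C1rb and C1s2 could take or give counts.

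Among lectin pathway genes, Mbl2, a mannose-binding lectin, had 389.8, 850.0 and 795 CPM, with 162, 674 and 728 CPM in T cell-like cells. It was 2.18 times CON in HFD (2.13 to 2.24) and 2.04 times in CCL4 (1.99 to 2.09), but its free RNA differed more, at 4.16 and 4.49 times CON. With the T cell-like level subtracted, the direction turned in both comparisons, to 0.774 and 0.297 times CON. Here and below, the subtraction takes hepatocyte-like cells to hold as much free RNA per UMI as T cell-like cells, which was not tested. In mitochondria-rich clusters of CCL4, Mbl2 was 0.916 times its T cell-like level, so the subtraction can take off too much. Mbl1, the other mannose-binding lectin, had 235.5, 188 and 142 CPM, with 80.1, 154 and 129 CPM in T cell-like cells. Masp2, the protease that cuts C4 for the lectins, had 161, 165 and 201 CPM, with 40.9, 113 and 137 CPM in T cell-like cells. Masp1, the protease that activates Masp2, had 41.6, 39.4 and 33.4 CPM, with 9.66, 25.6 and 20.1 CPM in T cell-like cells. Neither protease was past 2 times in a comparison.

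C3, the component on which all pathways converge, had the highest level among the complement genes, with 3596 CPM in CON (3573 to 3618), 1473 in HFD (1455 to 1491) and 1772 in CCL4 (1754 to 1791), and 839.6, 1022 and 752 CPM in T cell-like cells. C3 was 0.410 times CON in HFD (0.404 to 0.415) and 0.493 times in CCL4 (0.487 to 0.499). Mitochondria-rich clusters gave 0.379 and 0.415, and T cell-like cells 1.22 and 0.895. C3 was thus past 2 times lower in both treated libraries when all hepatocyte-like cells were summed and in mitochondria-rich clusters. The values lay closer together in the main cluster of very low mitochondrial share of each library, at 1555, 1222 and 985 CPM. Cfb, the protease of the alternative C3 convertase, had 43.0, 17.1 and 24.5 CPM, under the 50 CPM needed for a comparison over all clusters. In mitochondria-rich clusters, where it had 65.7 CPM in CON, Cfb was 0.387 times CON in HFD (0.317 to 0.469) and 0.449 times in CCL4. C4b, which forms the classical convertase with C2, had 168, 135 and 149 CPM, and counts of C4b can include those of its near-identical copy C4a. C2 itself had 29.8, 26.1 and 27.5 CPM in hepatocyte-like cells.

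C6, the first of the terminal genes measured here, had 89.1, 59.5 and 38.0 CPM in hepatocyte-like cells, with 28.6, 37.7 and 14.9 CPM in T cell-like cells. C8a and C8b, the alpha and beta chains of C8, had 307, 173 and 153 CPM and 140.4, 119.9 and 65.5 CPM. C8g, the gamma chain, had 609, 800.2 and 1335 CPM, with 200.7, 575 and 1209 CPM in T cell-like cells. C8a and C8b were lower and C8g higher in CCL4 than in CON, but C8g was only 1.10 times its T cell-like level there.

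In CCL4, C6 was 0.426 times CON (0.393 to 0.462), C8a 0.499 times (0.479 to 0.520) and C8b 0.466 times (0.438 to 0.496), and mitochondria-rich clusters gave 0.352, 0.416 and 0.363. C8g was 2.19 times CON (2.15 to 2.23), against 6.02 times in T cell-like cells and 1.83 times in mitochondria-rich clusters. With the T cell-like level subtracted, C8a, C8b and C8g were at 0.303, 0.265 and 0.309 times CON. In mitochondria-rich clusters of CCL4, C8g was 0.898 times its T cell-like level, more than which those cells could not hold as free RNA. How far the subtraction took off too much for C8g was not tested. C9, which completes the pore, had 394, 203 and 362 CPM, with a ratio of 0.515 in HFD that did not pass 2 times. None of the terminal genes was past 2 times in HFD.

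Among inhibitors, Serping1, the C1 inhibitor, had 905.5, 673 and 831 CPM, with 228, 514 and 589 CPM in T cell-like cells, and was 0.743 (0.727 to 0.760) and 0.917 (0.8996 to 0.935) times CON. Cfi, which cleaves C3b and C4b, had 411, 423 and 654 CPM, with 123, 303 and 426 CPM in T cell-like cells. C4bp, its cofactor for C4b, had 569, 292 and 361 CPM, with 172, 203 and 209 CPM in T cell-like cells. C4bp was 0.513 times CON in HFD over all clusters and, in mitochondria-rich clusters, past 2 times lower in CCL4 (0.476).

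Vitamin K-dependent factors carry gamma-carboxylated residues that bind membranes. F2, prothrombin, had 419, 464 and 631 CPM, with 109, 303 and 342 CPM in T cell-like cells, and was 1.11 (1.08 to 1.14) and 1.51 (1.47 to 1.54) times CON, or 0.520 and 0.933 with that level subtracted. F7, the partner of tissue factor, had 44.6, 43.6 and 62.6 CPM, F9 had 129, 85.2 and 146 CPM, and F10, which makes thrombin from prothrombin, had 196, 217 and 231 CPM. Proc, the anticoagulant protein C, had 109, 163 and 174 CPM, and its cofactor Pros1 had 31.0, 24.4 and 20.5 CPM in hepatocyte-like cells. None of the 4 tested genes of this role in HFD or the 5 in CCL4 was past 2 times, and their ratios ran from 0.663 to 1.49 in HFD and from 1.14 to 1.59 in CCL4. Proc, highest of these in both comparisons, was at 0.632 and 0.555 with the T cell-like level subtracted.

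F5, the cofactor of factor X, had 149.6, 97.6 and 217 CPM in hepatocyte-like cells, with 35.2, 61.9 and 64.8 CPM in T cell-like cells. Summed over all hepatocyte-like cells, F5 was 0.653 times CON in HFD (0.616 to 0.691) and 1.45 times in CCL4 (1.39 to 1.51), on opposite sides of CON. In the main cluster of very low mitochondrial share of each library it was lowest in CON, at 40.6, 66.4 and 80.8 CPM. These values were close to the T cell-like level in CON and HFD. The other two genes of that role, F8 and Vwf, were at most 2.25 CPM in hepatocyte-like cells. In the contact system, Kng1, kininogen, had 938, 1025 and 1020.0 CPM, with 319, 716 and 695.5 CPM in T cell-like cells. Its ratios to CON were 1.09 (1.07 to 1.11) in HFD and 1.09 (1.07 to 1.11) in CCL4, and 0.499 and 0.525 with the T cell-like level subtracted. Kng2 had 127, 121 and 126 CPM, Klkb1, prekallikrein, had 115, 152 and 212 CPM, and F12 had 80.7, 98.5 and 135.5 CPM. F11 was low, with 18.1, 10.6 and 8.29 CPM, under the 50 CPM needed for a comparison, and its CCL4 ratio was 0.459 (0.384 to 0.548). None of the 4 contact genes tested was past 2 times, and the split of reads between the close copies Kng1 and Kng2 is uncertain.

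Serpinc1, antithrombin, had 448, 800.9 and 992 CPM in hepatocyte-like cells, with 177.5, 582 and 739.9 CPM in T cell-like cells. Against CON it was 1.79 times in HFD and 2.21 times in CCL4 (2.16 to 2.26), against 3.28 and 4.17 times in T cell-like cells, and with the T cell-like level subtracted the ratios were 0.808 and 0.930. Serpind1, heparin cofactor II, had 157, 167 and 385 CPM, with 27.0, 108 and 191 CPM in T cell-like cells. Its CCL4 ratio of 2.45 (2.36 to 2.54) stood beside 7.08 in T cell-like cells and 2.00 in mitochondria-rich clusters, where it fell just short of 2 times. Serpinf2, the inhibitor of plasmin, had 493, 393 and 501 CPM, and Plg, plasminogen, had 854, 905 and 1187 CPM, neither of them past 2 times. Plg was 1.06 (1.04 to 1.08) and 1.39 (1.37 to 1.42) times CON, or 0.460 and 1.07 with the T cell-like level subtracted.

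Counted over the 49 genes in HFD, 31 reached 50 CPM in either library, of which 1 was past 2 times higher (Mbl2) and 3 past 2 times lower (C3, Fga and Fgg), where 6.37% of all genes tested were higher and 8.37% lower. The median ratio was 0.854 over these genes and 1.05 over all 2544 genes tested. All 14 members with a ratio over 1 came out below 1 when the T cell-like level was subtracted, a count not made over all genes. In mitochondria-rich clusters, 1 of 34 was higher and 5 were lower (C3, Cfb and the 3 fibrinogen chains), against 8.04% and 6.87% of all genes. In the acute phase list 19 of 20 genes were past 2 times lower, with a median ratio of 0.230.

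In CCL4, 32 genes were tested against CON, of which 5 were past 2 times higher (C1s1, C8g, Mbl2, Serpinc1 and Serpind1) and 6 past 2 times lower (C3, C6, C8a, C8b, Fga and Fgg), where 8.75% of all genes tested were higher and 8.48% lower. Their median ratio was 1.16, against 0.998 over all 2570 genes tested. Of the 19 members with a ratio over 1, 11 came out below 1 when the T cell-like level was subtracted, a count again not made over all genes. The 8 that stayed above 1 were C1s1, F13b, F7, F5, F12, Klkb1, Serpind1 and Plg, at 1.01 to 1.55. In mitochondria-rich clusters F7, F12 and Plg came out below 1 after subtraction, at 0.842, 0.971 and 0.896. C1s1, F13b, F5, Klkb1 and Serpind1 stayed above 1 there. With CPM scaled outside mitochondrial and the 20 most abundant genes, 5 were higher and 3 lower, also not counted over all genes. In mitochondria-rich clusters none of 34 was higher and 9 were lower (C3, C6, C8a, C8b, Cfb, C4bp and the 3 fibrinogen chains), against 8.59% and 9.04% of all genes. All 5 genes that were higher over all clusters also had higher free RNA in CCL4 than in CON, with T cell-like ratios of 3.22 to 7.08. Of these, C1s1 and Serpind1 stayed above CON after that subtraction, at 1.55 and 1.49 times, and C8g, Mbl2 and Serpinc1 fell below it. Of the acute phase list, 16 of 20 were past 2 times lower. Both comparisons share the CON library.

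**Figure D3:**
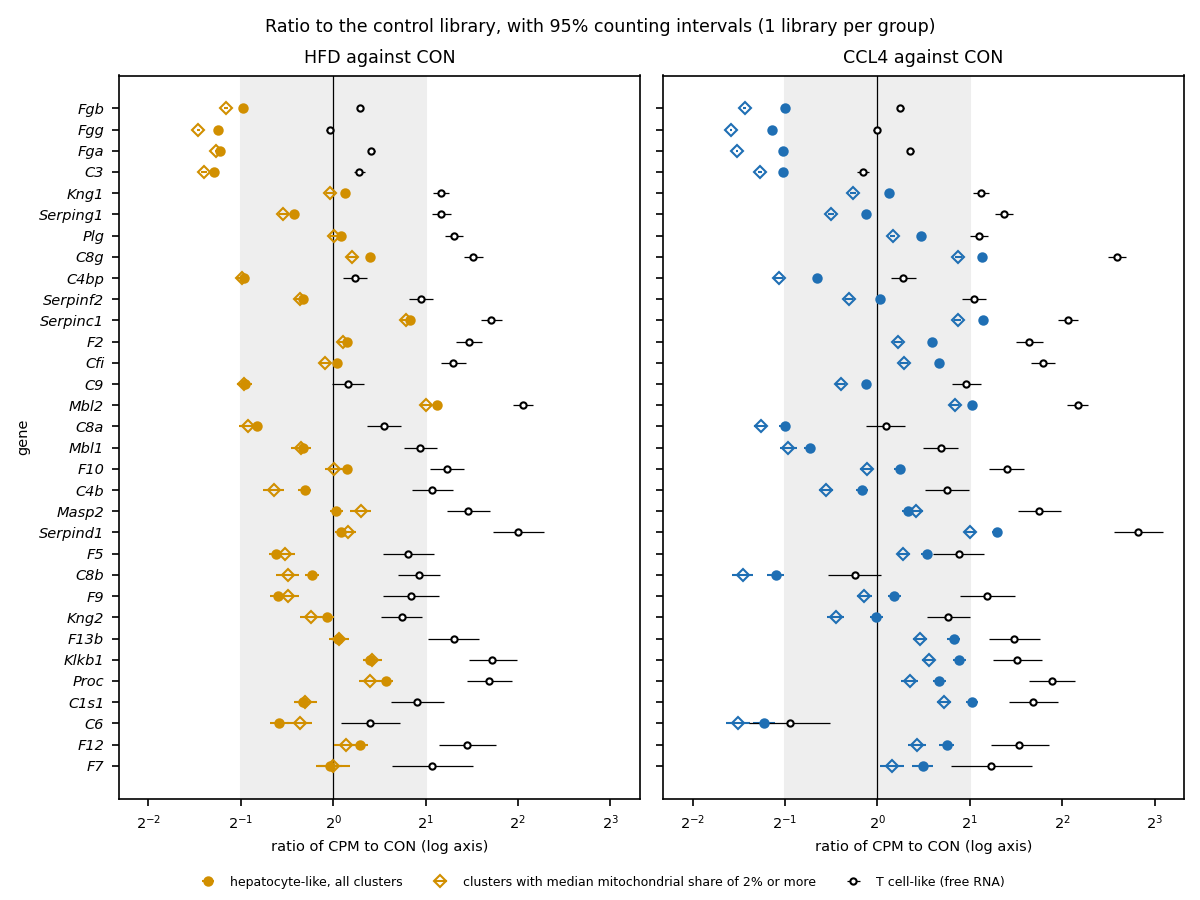
Ratio of CPM to the CON library (log axis) for HFD (left) and CCL4 (right) in all hepatocyte-like cells (filled circles), mitochondria-rich clusters (diamonds) and T cell-like cells (open circles), with 95% counting intervals as lines and the range within 2 times shaded. Fibrinogen and C3 lie left of or at the edge of the shading in both panels while their T cell-like points lie near 1, and for Mbl2, C8g, Serpinc1 and Serpind1 in CCL4 the T cell-like point lies further right than the hepatocyte-like one.

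In Kupffer cell-like cells, the macrophages of the liver, the C1q chains stood far above free RNA. C1qa had 2907 CPM in CON (2725 to 3098, 65 cells), 2847 in HFD (46 cells) and 1762 in CCL4 (7 cells). C1qb had 2641, 1764 and 1126 CPM, and C1qc 2650, 2294 and 1713 CPM. The free RNA level of the C1q chains in these cells was at most 8.17 CPM. The 8 Kupffer cell markers summed to 2619, 2953 and 3426 CPM there, and the CON class also held erythroid markers at 4168 CPM, so its values rest on a small and mixed set of cells.

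Monocyte-like cells had far less C1qa, 41.5, 8.93 and 87.3 CPM, and had the highest level of F13a1, the catalytic subunit of factor XIII, of any class in CON. F13a1 had 558 CPM in monocyte-like cells of CON (511 to 609, 211 cells), 195 in HFD (181 to 209, 1353 cells) and 253 in CCL4 (214 to 298, 229 cells), or 0.349 (0.311 to 0.391) and 0.454 (0.375 to 0.546) times CON. In myeloid progenitor-like cells it had 277, 71.8 and 26.6 CPM. F13a1 was therefore lower in the treated libraries in both classes, but different sub-clusters held most monocyte-like cells in each library, the 9 monocyte markers summed to 3694, 1855 and 1557 CPM there, and the 5 myeloid progenitor markers summed to 6285, 1225 and 340 CPM in myeloid progenitor-like cells. Their part in the difference was not tested.

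Properdin and the anaphylatoxin receptors were also genes of myeloid cells. Cfp, properdin, which stabilises the alternative convertase, had 272 CPM in Kupffer cell-like cells of CON and 197 in HFD, 68.9, 11.4 and 30.8 CPM in monocyte-like cells, and 45.3, 29.9 and 33.3 CPM in myeloid progenitor-like cells. C3ar1, the receptor of C3a, had 187 CPM in Kupffer cell-like cells of CON and 151 in HFD, with 56.1 CPM in basophil-like cells of CON. C5ar1, the receptor of C5a, had 268 CPM in granulocyte-like cells of CON (247 to 291, 616 cells), 176 in HFD (149 to 205, 344 cells) and 124 in CCL4 (79.7 to 185, 93 cells). Its ratios to CON were 0.655 (0.546 to 0.782) and 0.463 (0.295 to 0.697), and the 9 granulocyte markers summed to 93683, 90041 and 23025 CPM in those cells.

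C5ar1 was present in other myeloid classes too, with 184 CPM in basophil-like cells and 162 CPM in Kupffer cell-like cells of CON, and 71.0, 64.4 and 54.8 CPM in monocyte-like cells. F10 in monocyte-like cells of CON, at 174 CPM, was 3.50 times its free RNA level, and was not above that level by 2 times in the other two libraries, where it had 207 and 202 CPM.

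Endothelial cell-like cells (155, 301 and 164 cells, all from 1 cluster) held F8, the cofactor of factor IX, Vwf, its carrier, Pros1, and Tfpi, the inhibitor of tissue factor. F8 had 376 CPM in CON (333 to 423), 288 in HFD (254 to 325) and 82.2 in CCL4 (60.0 to 110), or 0.767 (0.645 to 0.911) and 0.219 (0.156 to 0.301) times CON. Vwf had 244, 66.0 and 14.6 CPM, the last from 8 UMIs, with a ratio of 0.270 in HFD (0.198 to 0.364). Its 26.8 CPM in erythroid cell-like cells of CON came with platelet markers at 3270 CPM in that class. F8 and Vwf were highest in CON in these cells.

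Pros1 had 340.5, 172 and 85.9 CPM in endothelial cell-like cells, or 0.504 (0.410 to 0.618) and 0.252 (0.181 to 0.346) times CON, and Tfpi had 171, 126 and 54.8 CPM, or 0.740 and 0.321 times CON. Masp1 was also above free RNA there, at 142, 96.8 and 64.0 CPM. The cells' own markers were lower too, with a sum over 10 genes of 9219, 6249 and 2361 CPM, while hepatocyte markers there summed to 17125, 77910 and 127162 CPM. In CCL4 a set of hepatocyte genes was called in this class at 2.04 to 3.23 times free RNA (C1s1, C3, C6, F13b, F9, F5, Klkb1 and Plg), with Plg at 1113 CPM against 161 CPM in CON. The part of hepatocyte RNA and of the lower endothelial marker level in these values was not tested.

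Fibroblast-like cells were few, with 23, 135 and 15 cells, but held the early complement genes well above free RNA. C3 had 4288 CPM there in CON, 3423 in HFD (3251 to 3602) and 1997 in CCL4, against free RNA levels of 414, 713 and 556 CPM. Serping1 had 2177, 1430 and 1589 CPM, C1s1 had 591, 383 and 340 CPM, and C4b had 492, 468 and 340 CPM. C1ra had 219 and 159 CPM in CON and HFD, C2 had 175 and 90.0 CPM, and Masp1 142 and 113 CPM. In CON, C3, Serping1, C1s1, C4b, C1ra, C2 and Masp1 were above free RNA in both hepatocyte-like and fibroblast-like cells, the latter from 23 cells. Over all hepatocyte-like cells of HFD none of these genes was above it, and over those of CCL4 only C1s1 and C3 were. In mitochondria-rich clusters, C1s1, Masp1, C2 and C3 were above it in HFD, and C1s1, Masp1, C2, C3 and C4b in CCL4. Smooth muscle cell-like cells of CON (53 cells) held C1s1 at 482 CPM, Serping1 at 398 CPM and C1ra at 58.5 CPM. Proc was above free RNA in cholangiocyte-like cells, the epithelium of bile ducts, in CON at 110.0 CPM and in HFD at 162 CPM, and had 152 CPM in CCL4.

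**Figure D4:**
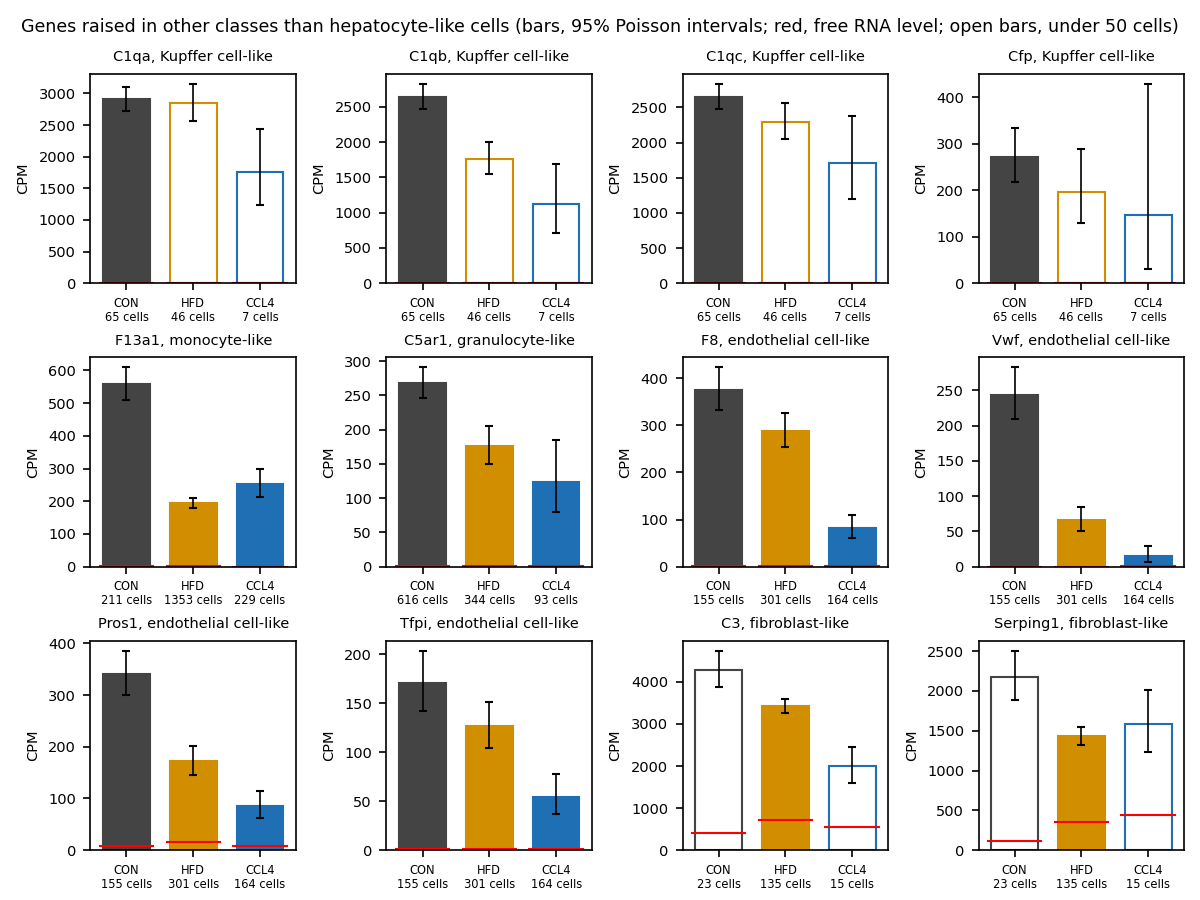
CPM of selected genes (1 per panel) in the named class of each library, with 95% Poisson intervals, the free RNA level as a red line, and open bars for classes under 50 cells. F13a1, C5ar1, F8, Vwf, Pros1 and Tfpi are highest in CON, and the C1q bars of HFD and CCL4 rest on 46 and 7 cells.

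The other lists of complement and clotting genes, none among the 49, were read in the same way, and beside each count in hepatocyte-like cells stand the shares over all genes tested, 16.1% in CON, 1.86% in HFD and 5.82% in CCL4. Of 19 other complement genes, 10 were above free RNA in hepatocyte-like cells of CON, 2 in HFD and 4 in CCL4. Outside hepatocyte-like cells, Clu, clusterin, had 8051, 5043 and 3592 CPM in cholangiocyte-like cells, Fcnb, a ficolin, 196, 131 and 67.3 CPM in granulocyte-like cells, and Fcna, the other ficolin, 104 CPM in CON and 52.8 CPM in HFD in endothelial cell-like cells.

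Of 11 complement receptors and membrane regulators, 1 was above free RNA in hepatocyte-like cells of CON (Cd59a). In another class 10, 10 and 9 of the 11 were, beside 85.2%, 65% and 55.1% of all genes tested. Vsig4, the complement receptor of tissue macrophages, had 291, 606 and 734 CPM in Kupffer cell-like cells (65, 46 and 7 cells). Cd55, which breaks up C3 convertases, had 823, 427 and 121 CPM in endothelial cell-like cells, and Itgam, a chain of complement receptor 3, 276, 109 and 111 CPM in monocyte-like cells. The endothelial and monocyte markers of these classes were also lower in HFD and CCL4, and their part was not tested. Cr2, complement receptor 2, had 71.6 CPM in B cell-like cells of CON.

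Of 18 other coagulation genes, 9, 0 and 2 were above free RNA in hepatocyte-like cells. Serpina10, the inhibitor of factor X that works with protein Z, had 347, 78.2 and 86.8 CPM, or 0.225 and 0.250 times CON, and Pzp, a broad protease inhibitor, had 1189, 494 and 738 CPM, or 0.416 and 0.621 times CON. None of the 8 tested was past 2 times higher. Thbd, thrombomodulin, had 530.4, 232 and 78.6 CPM in endothelial cell-like cells, and F3, tissue factor, 182, 57.3 and 63.4 CPM in cholangiocyte-like cells. For Thbd too, the part of the lower endothelial marker level in HFD and CCL4 was not tested. Of 9 fibrinolysis genes, 1, 2 and 2 were above free RNA in hepatocyte-like cells, with Plaur, the urokinase receptor, at 203, 99.1 and 94.2 CPM in monocyte-like cells. Of 5 vitamin K cycle and factor export genes, 4, 0 and 1 were, with none of 3 tested past 2 times, and Lman1, the export receptor of factors V and VIII, had 593, 394 and 373 CPM in plasma cell-like cells of which CON had 26.

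Within the lobule, hepatocyte-like cells of each library were ordered by 7 pericentral against 7 periportal landmark genes and divided into 3 equal parts. Most members were lower in the pericentral part than in the periportal part, 28 of 34 tested in CON, 22 of 32 in HFD and 29 of 32 in CCL4. Over all genes tested, 714 of 2492, 1128 of 2414 and 1322 of 2480 were lower there. The median ratios of the members were 0.814, 0.927 and 0.706, against 1.12, 1.01 and 0.968 over all genes. None was 0.5 times or less in CON or HFD (2.33% and 1.12% of all genes were), and 2 were in CCL4, C3 at 0.480 and F5 at 0.493 (2.26% of all genes). C8a was at 0.570, 0.555 and 0.569 and Serpind1 at 0.538, 0.695 and 0.559, low in all 3 libraries. Mbl2, at 1.53, 1.15 and 1.48, and Mbl1, at 1.17, 1.22 and 1.19, were on the pericentral side in all 3 libraries. Free RNA was not taken off in any of these ratios. Over all hepatocyte-like cells, Mbl2 was only 1.26 and 1.09 times its T cell-like level in HFD and CCL4, and Mbl1 1.22 and 1.10 times. Whether the parts differed in free RNA was not tested.

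Of the landmarks used for the ordering, periportal Cyp2f2 was at 0.107, 0.240 and 0.522 and pericentral Glul at 8.18, 9.04 and 7.97. In mitochondria-rich clusters the medians were 0.841, 0.697 and 0.841, and members at 0.5 or less were found in HFD and not in CON or CCL4. The 6 members in HFD, where 5.15% of all genes were, were C9 at 0.263, C8a at 0.284, Serpind1 at 0.452, Fgb at 0.467, C2 at 0.473 and Fgg at 0.496. The parts hold 394 cells each there, and cells of 1 library are not replicates.

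**Figure D5:**
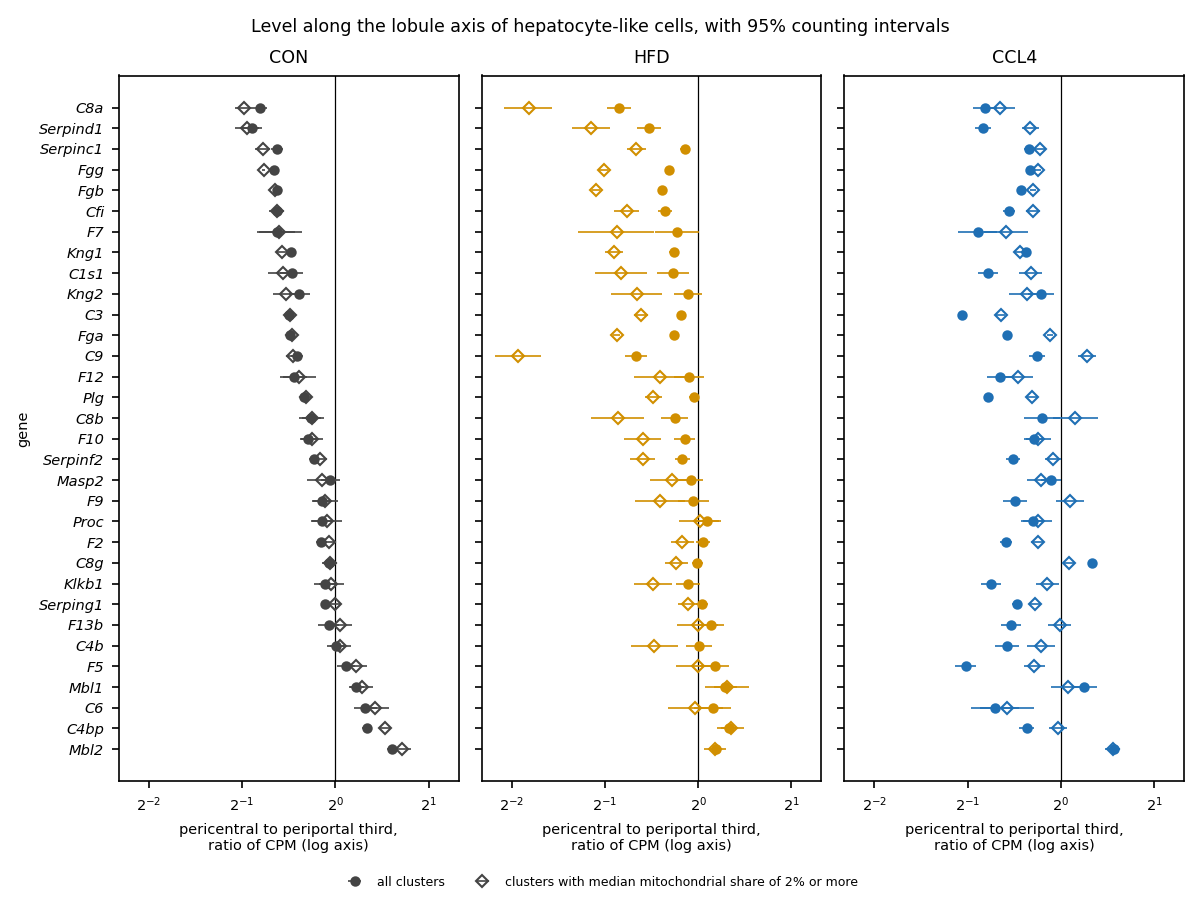
Ratio of CPM between the pericentral and the periportal part of hepatocyte-like cells (log axis) for members, 1 panel per library, with all clusters as filled circles, mitochondria-rich clusters as diamonds and 95% counting intervals as lines. Most points lie left of 1, C8a and Serpind1 among the lowest in CON, and Mbl2 lies right of 1 in all 3 panels.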

How the data were processed

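The deposited files were filtered UMI count matrices, raw counts per gene and barcode that the authors made with Cell Ranger (7.2.0 in the matrix header). The build was mm10 in the study's methods and GRCm39 in the submitters' notes. A barcode was retained when it had 500 UMIs or more, 200 genes or more and no more than 30% of its UMIs from mitochondria. Cells were clustered with scanpy 1.11.5 (2000 variable genes without the members, 30 principal components, 15 neighbours, Leiden resolution 1) into 38 clusters and named from marker lists when 3 or more markers of a class led or were raised. The exact naming rule was set after the clusters were seen, and 978 cells stayed unnamed. Scrublet called 6 barcodes (0.0162%), and these were removed. So low a share shows that it had not worked, and no other doublets were removed.

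For every class and library the UMIs of all cells were added up. Poisson intervals for CPM and exact conditional intervals for ratios (scipy 1.17.1) are at 95% and cover counting error only, and a count of 0 was taken as 3. Ratios between libraries were computed for genes with at least 50 CPM in 1 of the libraries, leaving out mitochondrial and ribosomal protein genes, and called past 2 times. With 1 library per group no p-value was computed. Steps were tested on simulated data. Members with 50 CPM or more in hepatocyte-like cells were given in all 3 libraries, with ratios for those past 2 times and for a part of the others. In the other classes only a part of the members, libraries and ratios was printed. The members and lists were chosen with earlier results of these data known. Promoters came from a RefSeq table on GRCm38.p6, which held 38 of the 49 genes. A result for 1 gene of the other complement list is not reported here.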

Additional observations from a re-analysis of the deposited data

How the results depend on the processing

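No paired analysis was possible because each group had 1 library, and nothing below carries a test. The number of members above free RNA in hepatocyte-like cells (37, 0 and 11) was 1 in HFD and 4 in CCL4 with B cell-like cells as the background, 20 and 22 in mitochondria-rich clusters (read after the data were seen), and 1 in CCL4 at 3 times free RNA. The number called in other classes alone in CCL4 (11) was 17 with the B cell-like background and 7 with each library clustered alone. Members past 2 times lower and higher in HFD (3 and 1) were 5 and 4 with no minimum CPM, 9 and 2 at 1.5 times, 23 and 0 with the T cell-like level subtracted, and 5 lower in mitochondria-rich clusters. In CCL4 (6 lower and 5 higher) they were 14 and 0 with the T cell-like level subtracted, 10 lower with no minimum, 11 higher at 1.5 times, 3 lower with CPM scaled outside mitochondrial and the 20 most abundant genes, 1 lower as a mean over cells, and 0 higher in mitochondria-rich clusters. Subtraction turned all 14 tested members above CON in HFD and 11 of 19 in CCL4 to below it, and 0 the other way. Outside mitochondria-rich clusters, the counts under these alternatives were not made over all genes, those after subtraction among them. They are therefore not read as particular to the members. Among members past 2 times it reversed Mbl2 in HFD (0.774) and, in CCL4, C8g (0.309), Mbl2 (0.297) and Serpinc1 (0.930). Members at 0.5 times or less in the pericentral part were 6 in HFD and 0 in CCL4 in mitochondria-rich clusters, and 0 in CCL4 when cells were split into 2 parts. The cause of these changes was not tested. Over all alternatives, 98 counts stayed within 1.5 times and 24 did not. Among values of single genes, 250 stayed within their main counting interval, 142 moved outside it and 4 reversed. The median of all genes moved most in HFD in mitochondria-rich clusters, to 0.14 on the log2 scale, and to 0.10 in CCL4 under the other scaling.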
